A study of Homo sapiens with 8 samples.

Results

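The EGF receptor family and its ligands were described in prostate cells exposed to an extract of Rauwolfia vomitoria root bark (RWF). The family was taken as 9 named genes: the receptors EGFR, ERBB2 and ERBB3 and the ligands AREG, EREG, HBEGF, TGFA, BTC and NRG1. A gene was counted where the array annotation tied a transcript cluster (the set of probes summarized as 1 transcript locus) to that symbol alone, and the cluster with the highest mean over all arrays stood for it. This gave 7 of the 9 genes, out of 22465 genes measured in the same way. The cluster for ERBB2 also carries the microRNA gene MIR4728 and is given apart, and AREG is not analysed here.

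Receptors of this family are tyrosine kinases that pair on binding a ligand and pass the signal to the RAS/ERK and PI3K/AKT routes. EGF, TGFA and AREG bind EGFR, HBEGF, BTC and EREG bind EGFR and ERBB4, and neuregulins such as NRG1 bind ERBB3 and ERBB4. ERBB2 has no known ligand of its own and acts as a partner, and ERBB3 signals mainly through its partner because its own kinase is weak. The ligands are made as membrane proteins and are freed by metalloproteases, and in the prostate they are known as growth signals within the epithelium and between epithelium and stroma.

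BPH-1, an immortalized human epithelial line from benign prostatic hyperplasia, and WPMY-1, an immortalized myofibroblast line from prostate stroma, were each exposed for 24 h to vehicle or to RWF extract, dosed at 250 μg/ml. The 4 groups were RWF-treated BPH-1, vehicle-treated BPH-1, RWF-treated WPMY-1 and vehicle-treated WPMY-1, with 2 Affymetrix Human Transcriptome Arrays in each. Each line comes from a single source and the lines were grown in different media, so line, donor and medium cannot be told apart. All levels below are log2 array signals (1 unit is 2-fold), given for replicate 1 and then replicate 2, and they compare 1 gene between arrays, not different genes.

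Arrays of a group correlated at 0.995 to 0.997 over all 67528 clusters, against 0.970 to 0.975 between the lines. Epithelial markers stood higher in BPH-1 for 10 of the 11 measured, and stromal markers stood higher in WPMY-1 for 11 of 11, all past the test. The mean of the epithelial list was 7.89 to 7.97 in RWF-treated BPH-1, 7.79 to 7.81 in vehicle-treated BPH-1, 5.22 to 5.25 in RWF-treated WPMY-1 and 5.10 to 5.19 in vehicle-treated WPMY-1. Of the markers of other cell types, PTPRC (leukocytes, 2.41 to 2.44) and PECAM1 (endothelium, 2.89 to 3.39) lay below the array medians of 4.50 to 4.58, CDH5 (endothelium, 4.57 to 4.92) lay close to them, and CHGA (neuroendocrine cells, 5.52 to 5.90) lay above them in every array. No detection call came with the values, and a level near or below these medians can be background. If CHGA is not expressed in these lines, a level above the medians, up to the CHGA range, can be background too.

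Promoter sequence is given for the ligands EREG, HBEGF and TGFA, to show what lies just before their annotated start sites. The 250 bases before the start were taken from RefSeq on GRCh38.p14, where 7 of the 9 genes had an entry and ERBB3 and NRG1 had none. For EREG, with the largest difference between the lines among the 7, these bases lie at chr4:74364895-74365144 on the plus strand. For HBEGF, which was lower with RWF in WPMY-1, they lie at chr5:140346604-140346853 on the minus strand. For TGFA, which differed between the lines but moved little with RWF, they lie at chr2:70553827-70554076 on the minus strand. Sequences run 5′ to 3′ along the gene, and capitals mark matches on either strand to any of 4 motifs. These are the box near the start of many genes, TATAAA, the box bound by proteins of the SP family, GGGCGG, the site bound by JUN and FOS proteins, TGANTCA, and the cyclic AMP response element, TGACGTCA.
EREG promoter: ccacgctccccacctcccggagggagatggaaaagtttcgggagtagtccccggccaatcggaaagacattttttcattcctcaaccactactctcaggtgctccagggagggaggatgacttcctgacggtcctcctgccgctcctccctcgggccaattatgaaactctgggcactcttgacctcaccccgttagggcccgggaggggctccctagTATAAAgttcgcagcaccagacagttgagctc
HBEGF promoter: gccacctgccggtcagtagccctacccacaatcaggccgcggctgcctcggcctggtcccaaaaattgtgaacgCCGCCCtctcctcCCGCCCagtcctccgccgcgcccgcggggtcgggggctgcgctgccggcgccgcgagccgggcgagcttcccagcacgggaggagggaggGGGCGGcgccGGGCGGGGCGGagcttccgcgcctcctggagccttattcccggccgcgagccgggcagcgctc
TGFA promoter: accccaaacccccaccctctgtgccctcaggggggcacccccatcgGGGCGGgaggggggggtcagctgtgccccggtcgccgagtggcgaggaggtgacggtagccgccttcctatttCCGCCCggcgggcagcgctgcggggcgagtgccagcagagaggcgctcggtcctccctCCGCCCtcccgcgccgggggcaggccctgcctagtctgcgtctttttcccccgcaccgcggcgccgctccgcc
The EREG window holds 1 TATAAA, which starts 32 bases before the start site, and none of the other motifs. The HBEGF window holds 5 GGGCGG matches, of which the last pair overlap, and the TGFA window holds 3. The window before the second annotated start of TGFA has no match, and neither has the BTC window. Over the 35116 promoters of the table, TATAAA was found in 10.7%, GGGCGG in 42.6%, TGANTCA in 6.57% and TGACGTCA in 1.65%. A match describes letters and says nothing of whether a protein binds there. In the order of protein-coding genes on chromosome 4, EPGN, EREG, AREG and BTC are neighbours.

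Most of the family stood higher in the epithelial line, and with RWF NRG1 and HBEGF fell in the stromal line. In vehicle-treated cells 7 of 7 genes had higher levels in BPH-1 than in WPMY-1, and 6 passed the test by limma, against 8.82% of all clusters higher; EGFR just missed it. In WPMY-1, NRG1 fell by 0.98 and HBEGF fell by 0.52 with RWF on the log2 scale, where 0.905% of all clusters were lower, and the HBEGF call was lost when any 1 of the 8 arrays was left out. The NRG1 call was lost without some single arrays. In BPH-1, 0 of the 7 genes passed the test with RWF by limma, against 0.0400% of all clusters. NRG1 and HBEGF were also lower with RWF there, with differences of -0.30 and -0.35. For neither gene did the RWF effect differ between the lines past the test (adjusted p = 0.377 and 0.717 by limma). The plot of every array shows these levels gene by gene.

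**Figure D1:**
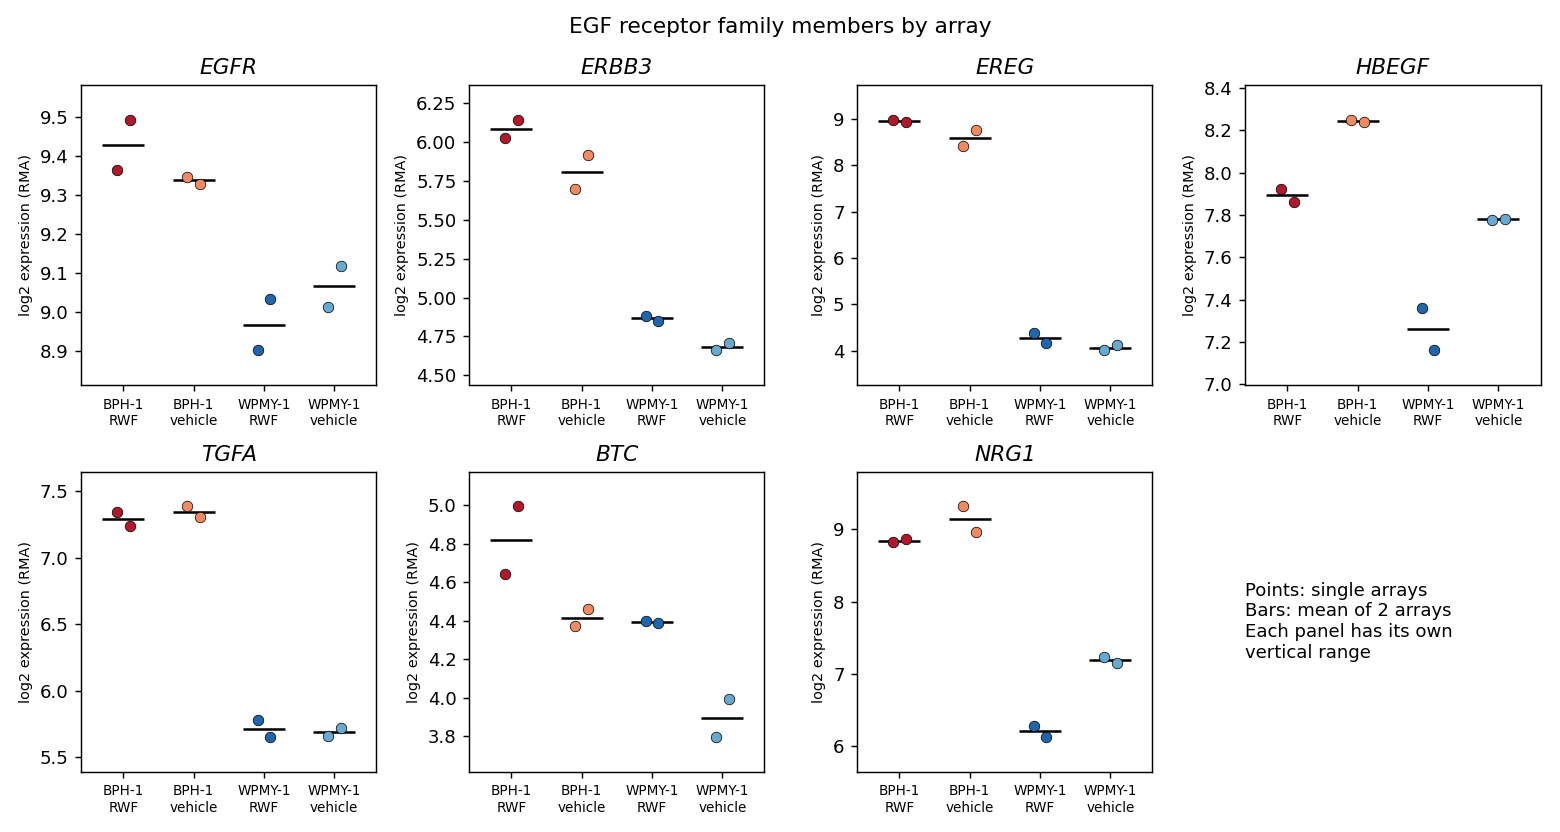
Log2 array signal of the 7 genes in every array, with a point per array and a bar at each group mean (n = 2 arrays a group). EREG lay between 8.42 and 8.99 in BPH-1 arrays and between 4.003 and 4.38 in WPMY-1 arrays, and NRG1 was lowest in RWF-treated WPMY-1.

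Among the receptors, EGFR, the receptor of most of these ligands, had 9.36 and 9.49 in RWF-treated BPH-1, against 9.35 and 9.33 in vehicle-treated BPH-1. It had 8.90 and 9.03 in RWF-treated WPMY-1, against 9.01 and 9.12 in vehicle-treated WPMY-1. All BPH-1 arrays were above all WPMY-1 arrays, and the WPMY-1 groups overlapped. With RWF, EGFR differed by 0.09 in BPH-1 (95% CI -0.11 to 0.29) and by -0.10 in WPMY-1 (95% CI -0.30 to 0.10), and neither passed the test by limma (adjusted p = 1.00 and 0.566). The vehicle-treated lines differed by 0.27 (95% CI 0.07 to 0.47), which just missed the threshold of 0.05 (adjusted p = 0.0747 by limma), and the RWF-treated lines by 0.46 (adjusted p = 0.00771 by limma).

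ERBB3, the neuregulin receptor with a weak kinase, had 6.03 and 6.14 in RWF-treated BPH-1, against 5.70 and 5.91 in vehicle-treated BPH-1. It had 4.88 and 4.85 in RWF-treated WPMY-1, against 4.66 and 4.71 in vehicle-treated WPMY-1. No neighbouring groups overlapped, and the WPMY-1 values were close to the array medians. Vehicle-treated BPH-1 exceeded vehicle-treated WPMY-1 by 1.12 (2.18-fold, SE 0.09, adjusted p = 7.85e-05 by limma). RWF arrays were above vehicle arrays in both lines, by 0.28 in BPH-1 (95% CI 0.06 to 0.49) and 0.18 in WPMY-1 (95% CI -0.03 to 0.40), and neither difference passed (adjusted p = 0.674 and 0.321 by limma).

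The cluster that ERBB2 shares with MIR4728 had 6.71 and 6.85 in RWF-treated BPH-1, 6.61 and 6.76 in vehicle-treated BPH-1, 6.63 and 6.61 in RWF-treated WPMY-1 and 6.57 and 6.79 in vehicle-treated WPMY-1. Every group overlapped with at least 1 other group. The vehicle-treated lines differed by 0.01 (95% CI -0.22 to 0.24), and no difference of this cluster passed the test. ERBB4, the remaining receptor of the family, passed in none of the 5 comparisons, with differences between -0.04 and 0.02. It lay between 3.41 and 3.53 in every array, below the array medians, so it may be background and its lack of a difference says little.

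Among the ligands, EREG (epiregulin) had 8.99 and 8.94 in RWF-treated BPH-1, against 8.42 and 8.77 in vehicle-treated BPH-1. It had 4.38 and 4.17 in RWF-treated WPMY-1, against 4.003 and 4.12 in vehicle-treated WPMY-1. EREG was thus well above the array medians in every BPH-1 array and below them in every WPMY-1 array. Vehicle-treated BPH-1 exceeded vehicle-treated WPMY-1 by 4.54 (23.2-fold, SE 0.13, adjusted p = 2.01e-07 by limma), and the RWF-treated lines differed by 4.69 (25.8-fold, adjusted p = 2.13e-07 by limma). Because the WPMY-1 values may be background, these folds can understate the gap. RWF arrays lay above vehicle arrays by 0.37 in BPH-1 (95% CI 0.08 to 0.66) and 0.22 in WPMY-1 (95% CI -0.07 to 0.51), without passing the test (adjusted p = 0.684 and 0.378 by limma).

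TGFA (transforming growth factor alpha), a ligand of EGFR, had 7.35 and 7.24 in RWF-treated BPH-1, against 7.39 and 7.31 in vehicle-treated BPH-1. It had 5.78 and 5.65 in RWF-treated WPMY-1, against 5.66 and 5.72 in vehicle-treated WPMY-1. The lines were far apart, and within each line the RWF and vehicle arrays overlapped. Vehicle-treated BPH-1 was above vehicle-treated WPMY-1 by 1.66 (3.17-fold, adjusted p = 5.05e-06 by limma). RWF minus vehicle came to -0.06 in the epithelial line (95% CI -0.25 to 0.14) and 0.03 in the stromal line (95% CI -0.17 to 0.22), so neither interval reaches a 1.3-fold difference (0.38 on the log2 scale). The WPMY-1 values lay within the range of the neuroendocrine marker CHGA (5.52 to 5.90) and may be background. If so, the lack of a difference with RWF in WPMY-1 says little, and the fold between the lines can understate the gap.

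NRG1 (neuregulin 1), a ligand of ERBB3 and ERBB4, had 8.82 and 8.86 in RWF-treated BPH-1, against 9.32 and 8.96 in vehicle-treated BPH-1. It had 6.29 and 6.13 in RWF-treated WPMY-1, against 7.23 and 7.14 in vehicle-treated WPMY-1. RWF arrays were below vehicle arrays in both lines, and every BPH-1 array was above every WPMY-1 array. In WPMY-1, NRG1 fell by 0.98 with RWF on the log2 scale (1.98-fold lower, SE 0.12, 95% CI -1.26 to -0.71, adjusted p = 0.0106 by limma). In BPH-1 the difference of -0.30 (95% CI -0.57 to -0.02) did not pass (adjusted p = 0.814 by limma). The difference between these 2 effects was 0.68 (95% CI 0.29 to 1.07) and did not pass either (adjusted p = 0.377 by limma), so a different response of the lines was not shown. The lines differed by 1.95 with vehicle (3.87-fold, adjusted p = 1.44e-05 by limma) and by 2.63 with RWF (6.21-fold, adjusted p = 3.34e-06 by limma). These comparisons share arrays. The WPMY-1 call passed in 6 of the 8 fits that left out 1 array: without WPMY-1 vehicle replicate 1 the adjusted p was 0.0718 at a difference of -0.94, and without WPMY-1 RWF replicate 2 it was 0.0643 at -0.90.

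A second, dimmer cluster of NRG1 ran the same way. It had 3.998 and 4.31 in RWF-treated WPMY-1, against 5.16 and 4.67 in vehicle-treated WPMY-1, with no overlap. The difference of -0.76 did not pass (adjusted p = 0.122 by limma). In BPH-1 it had 6.84 and 7.13 with RWF, against 7.67 and 7.17 with vehicle, a difference of -0.43 (adjusted p = 0.915 by limma). The vehicle-treated lines differed by 2.50 in this cluster (adjusted p = 9.20e-05 by limma).

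HBEGF (heparin-binding EGF-like growth factor) had 7.92 and 7.86 in RWF-treated BPH-1, against 8.25 and 8.24 in vehicle-treated BPH-1. It had 7.36 and 7.16 in RWF-treated WPMY-1, against 7.78 in both vehicle-treated WPMY-1 arrays. RWF arrays were below vehicle arrays in both lines with no overlap. In WPMY-1, HBEGF fell by 0.52 on the log2 scale (1.43-fold lower, SE 0.09, 95% CI -0.72 to -0.32, adjusted p = 0.0336 by limma). In BPH-1 the difference of -0.35 (95% CI -0.55 to -0.15) did not pass (adjusted p = 0.423 by limma), and the effects in the 2 lines differed by 0.17 (95% CI -0.12 to 0.45, adjusted p = 0.717 by limma). The WPMY-1 call was lost when any of the 8 arrays was left out, with differences of -0.62 to -0.42 and adjusted p of 0.0580 to 0.126. With vehicle, BPH-1 was above WPMY-1 by 0.47 (1.38-fold, adjusted p = 0.00683 by limma).

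BTC (betacellulin) had 4.64 and 4.99 in RWF-treated BPH-1, against 4.37 and 4.46 in vehicle-treated BPH-1. It had 4.40 and 4.39 in RWF-treated WPMY-1, against 3.80 and 3.99 in vehicle-treated WPMY-1. RWF arrays were above vehicle arrays in both lines, at levels around or below the array medians. BTC differed by 0.40 in the epithelial line (95% CI 0.12 to 0.69, adjusted p = 0.585 by limma) and by 0.50 in the stromal line (95% CI 0.22 to 0.78, adjusted p = 0.0901 by limma), and neither passed. With 1 cluster kept per gene, and so fewer tests, the WPMY-1 adjusted p was 0.0426. The 4 markers of other cell types had a median difference of 0.19 in WPMY-1 with RWF and none passed, and their part in the BTC values was not tested. Vehicle-treated BPH-1 was above vehicle-treated WPMY-1 by 0.52 (1.44-fold, adjusted p = 0.0209 by limma). That call was lost without BPH-1 vehicle replicate 1 (0.57), without BPH-1 vehicle replicate 2 (0.48) or without WPMY-1 vehicle replicate 1 (0.42).

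Counted over the family, RWF gave 0 of 7 calls in BPH-1, where 0.0400% of all clusters passed by limma. At an unadjusted p under 0.05, ERBB3, EREG and BTC were higher and HBEGF and NRG1 lower in BPH-1, which is 5 of 7 against 5.83% of all clusters. The methods' t-test gave 1 gene unadjusted, against 5.49% of all clusters, and 0 adjusted. In WPMY-1, 2 of 7 passed, both lower, against 1.53% of all clusters in either direction and 0.905% lower (0.625% were higher). RWF and vehicle arrays did not overlap for 6 of 7 genes in BPH-1, against 34.4% of all clusters, and for 5 of 7 in WPMY-1, against 50.6%. A 1.3-fold difference, with no test, was reached by BTC alone in BPH-1 (2.10% of all clusters) and by BTC, HBEGF and NRG1 in WPMY-1 (6.92% of all clusters). The median difference of the 7 genes with RWF was 0.09 (BPH-1) and 0.03 (WPMY-1), beside -0.01 and 0.04 over all clusters. The 7 genes and all clusters are unlike sets. Each gene is shown by its brightest cluster, whereas 42204 of the 67528 clusters have no gene symbol. Part of any gap to these shares can come from that.

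**Figure D2:**
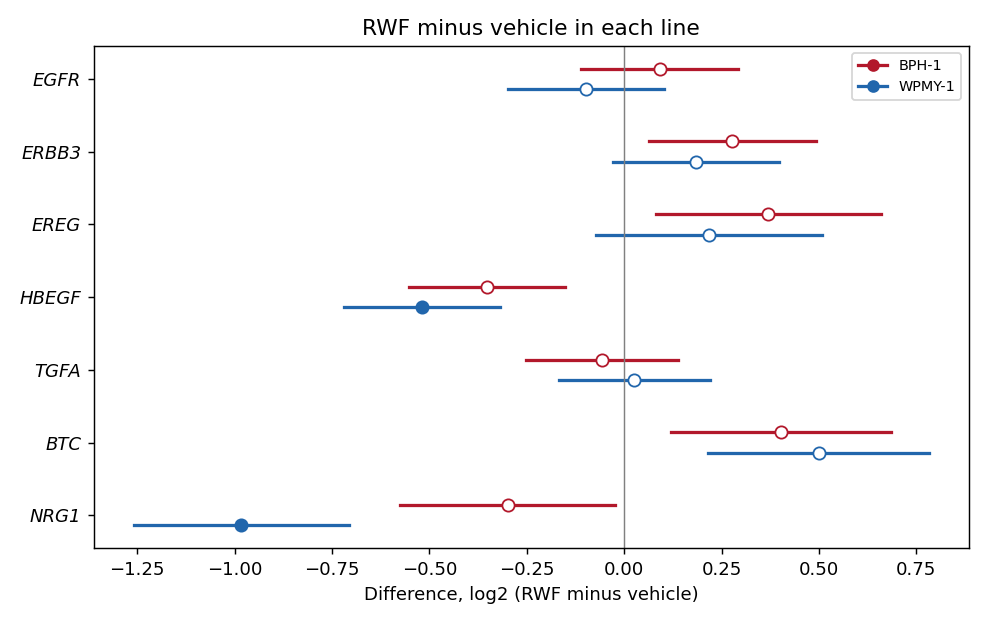
Difference between RWF and vehicle (log2) for each gene in BPH-1 and in WPMY-1, with lines for the 95% confidence interval from limma and filled points for adjusted p under 0.05 (n = 2 arrays a group). NRG1 at -0.98 and HBEGF at -0.52 in WPMY-1 are the filled points.

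The RWF effect differed past the test between the lines for 0 of 7 genes by limma, against 0.00592% of all clusters. At an unadjusted p under 0.05 that comparison held 1 of the 7, NRG1, against 8.61% of all clusters. The signs of the RWF differences were the same in both lines for ERBB3, EREG and BTC (higher) and for HBEGF and NRG1 (lower), and opposite for EGFR and TGFA, whose intervals all included 0 and of which TGFA in WPMY-1 turned negative with quantile normalization or median centring. In RNA from whole cultures, fewer cells that express a gene and less RNA of it per cell cannot be told apart. Stromal markers moved alongside in WPMY-1: 4 of the 11 measured fell with RWF (COL1A1, COL1A2, COL6A3 and PRRX1), and their list mean was 7.55 to 7.58 with RWF, against 7.87 to 7.88 with vehicle. Their part in the NRG1 and HBEGF values was not tested.

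Between the lines, 6 of 7 genes were higher in vehicle-treated BPH-1 by limma, against 8.82% of all clusters higher and 16.6% in either direction. Between RWF-treated lines 7 of 7 were higher in BPH-1, against 16.6% in either direction. The median difference of the 7 genes was 1.12 with vehicle and 1.22 with RWF, beside 0.01 and -0.04 over all clusters. From high to low, ERBB3 and EREG were ordered RWF-treated BPH-1, vehicle-treated BPH-1, RWF-treated WPMY-1 and vehicle-treated WPMY-1, with no overlap between neighbours. HBEGF and NRG1 had vehicle above RWF within each line, also with no overlap. In BTC the vehicle-treated BPH-1 and RWF-treated WPMY-1 arrays overlapped.

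**Figure D3:**
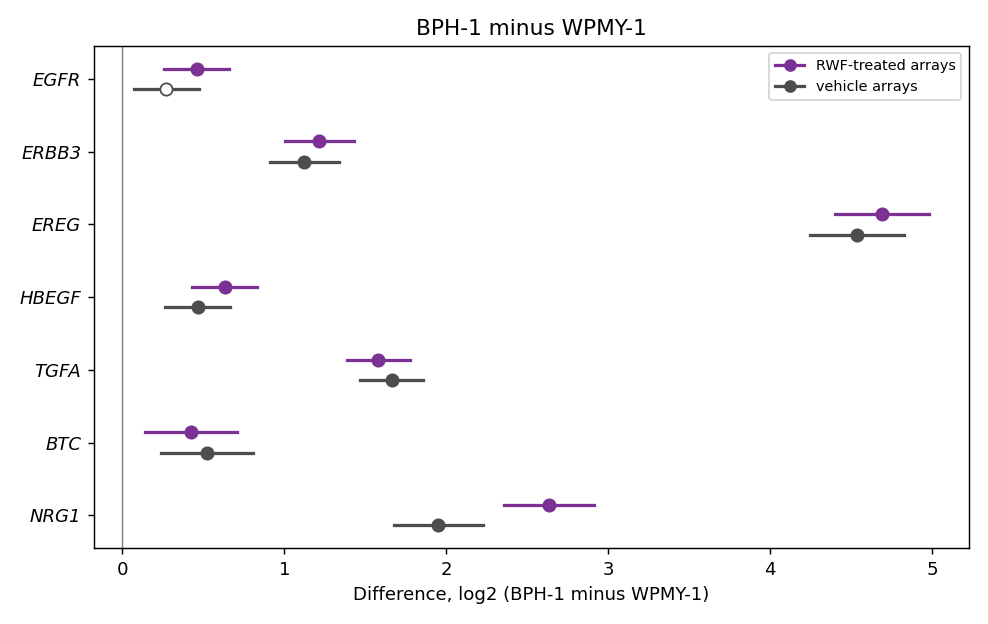
Difference between BPH-1 and WPMY-1 (log2) for each gene in RWF-treated and in vehicle-treated arrays, with lines for the 95% confidence interval from limma and filled points for adjusted p under 0.05 (n = 2 arrays a group). EREG stands apart at 4.69 with RWF and 4.54 with vehicle, and EGFR at 0.27 with vehicle is the open point among the 7 genes.

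Beyond these 7 genes, the pathway was read from lists of genes by role. Counts at an unadjusted p under 0.05 are read against 5.83% (BPH-1) and 19.0% (WPMY-1) of all clusters, and calls between the lines against 16.6%. Of the 5 further ligands measured, 0 passed with RWF in either line by limma, with 1 lower in BPH-1 and 1 higher in WPMY-1 at an unadjusted p under 0.05. Between the vehicle-treated lines 3 of these ligands were higher in BPH-1 and 1 was lower, and between the RWF-treated lines 1 was higher. They are named here after their values were seen. NRG2 averaged 6.46 in vehicle-treated BPH-1 and 5.92 in vehicle-treated WPMY-1. The others lay below the array medians in both group means and may be background. EPGN averaged 4.36 in vehicle-treated BPH-1 and 2.64 in vehicle-treated WPMY-1, and NRG4 averaged 3.61 in vehicle-treated BPH-1 and 3.09 in vehicle-treated WPMY-1. EGF, the lower one, averaged 3.01 in vehicle-treated BPH-1 and 3.37 in vehicle-treated WPMY-1. EPGN was the one that also passed between the RWF-treated lines. Of the 5 genes of ligand shedding 0 passed in any comparison by limma, and 1 in BPH-1 and 3 in WPMY-1 were at an unadjusted p under 0.05 with RWF. Of the 12 receptor adaptors and signal relays measured, 0 passed with RWF in either line by limma, with 1 and 3 at an unadjusted p under 0.05 in BPH-1 and WPMY-1, while 1 was higher and 3 were lower in vehicle-treated BPH-1 than in WPMY-1. Of the 16 receptor inhibitors and trafficking genes, 0 passed with RWF in either line by limma, with 3 and 6 at an unadjusted p under 0.05 in BPH-1 and WPMY-1, and 5 were higher and 3 lower in vehicle-treated BPH-1 than in WPMY-1.

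Of the genes on these pathway lists, the 2 that passed with RWF belong to those known to be induced by ERK signalling. In WPMY-1, 2 of 12 passed as higher, against 0.625% of all clusters, and 10 did not pass. A positive difference was found for 11 of the 12, where 59.1% of all clusters had one. At an unadjusted p under 0.05 by limma, 6 of the 12 were higher, against 19.0% of all clusters in either direction. The median difference was 0.19, beside 0.04 over all clusters. DUSP6, a phosphatase that switches ERK off, had 6.99 and 6.50 in RWF-treated WPMY-1, against 5.98 and 5.84 in vehicle-treated WPMY-1, and was higher by 0.83 (1.78-fold, SE 0.15, adjusted p = 0.0385 by limma). ETV5, an ETS-family transcription factor, had 7.64 and 7.32 in RWF-treated WPMY-1, against 6.82 and 6.77 in vehicle-treated WPMY-1, and was higher by 0.69 (1.61-fold, SE 0.11, adjusted p = 0.0305 by limma). The RWF arrays of both genes were above the vehicle arrays without overlap.

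Leaving out 1 array kept the DUSP6 call in 1 of 8 fits (differences 0.59 to 1.08) and the ETV5 call in 3 of 8 (0.53 to 0.85). The DUSP6 call held only without WPMY-1 RWF replicate 2, and the ETV5 call without that array or without either RWF-treated BPH-1 array. In BPH-1, 12 of 12 ERK target genes had a positive difference (median 0.18), where 46.5% of all clusters had one, and 0 passed by limma. At an unadjusted p under 0.05 there were 2 of the 12, against 5.83% of all clusters. DUSP6 had 7.52 and 7.55 in RWF-treated BPH-1, against 7.13 and 7.28 in vehicle-treated BPH-1 (0.33, adjusted p = 0.863 by limma). ETV5 had 6.67 and 6.52 in RWF-treated BPH-1, against 6.23 and 6.21 in vehicle-treated BPH-1 (0.37, adjusted p = 0.562 by limma).

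**Figure D4:**
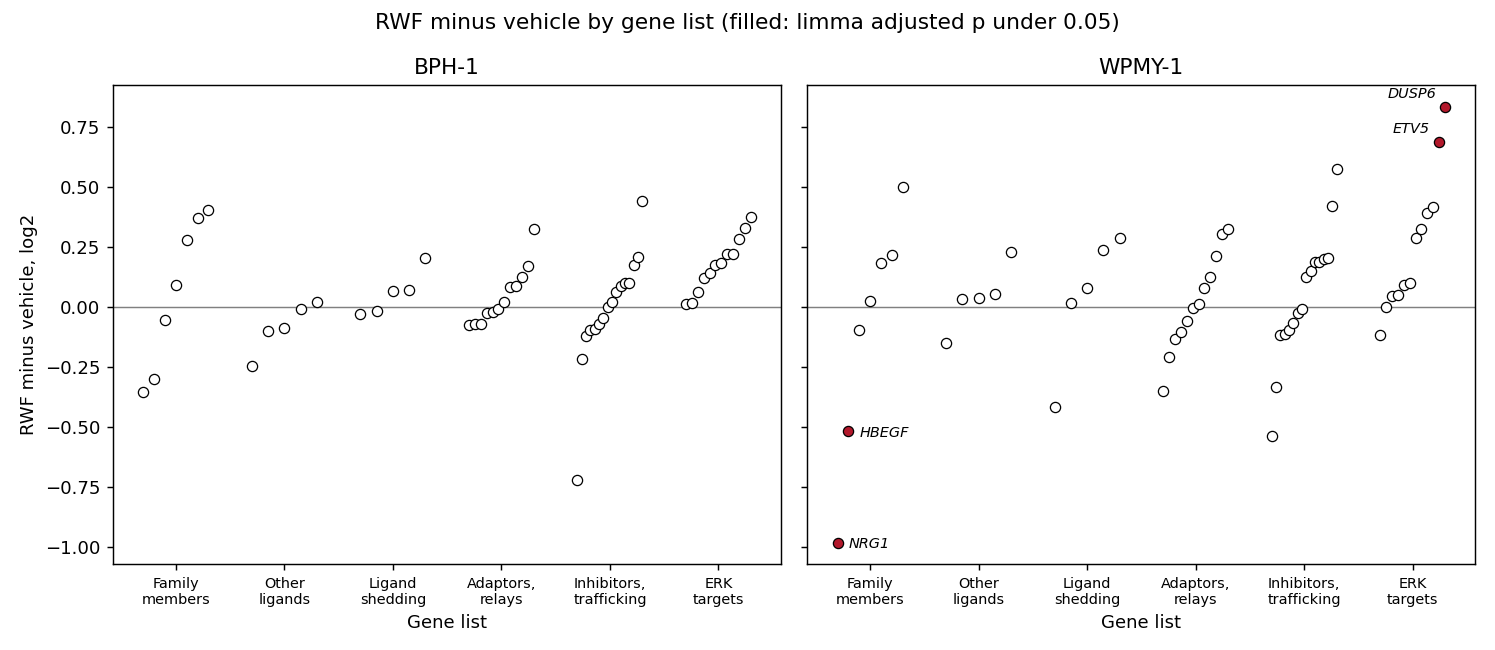
Difference between RWF and vehicle (log2) of the measured genes of each pathway list in BPH-1 and in WPMY-1, a point per gene, with filled points for adjusted p under 0.05 by limma. DUSP6 at 0.83 and ETV5 at 0.69 in WPMY-1 are the filled points outside the 7 family genes.

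The patterns most like those of the 3 genes with the largest RWF differences were sought by Pearson's r over the 8 arrays. NRG1 ran closest to MIR622 (0.999), GDAP1 (0.997) and GLO1 (0.997), HBEGF to ZNF589 (0.992), BOLA3 (0.990) and SLC35D4 (0.984), and BTC to PELI1 (0.987), MIR3621 (0.980) and KIF13B (0.978). These arrays fall into 2 lines, and each of these 3 genes differs between them, so r is given as a description with no test.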

How the data were processed

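The deposited file holds log2 signals for each transcript cluster on each array, which the submitters' processing notes ascribe to RMA (background correction, normalization between arrays and summary of probes) with no version. They were used unchanged, with precision set by the small number of arrays. Clusters were named from the platform annotation, in which 23781 clusters have 1 symbol, 1543 several and 42204 none. The array build is not given in the sources used here, so no cluster coordinates were used.

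All 8 arrays were fitted as 4 groups with limma 3.58.1 in R 4.3.3, with Benjamini-Hochberg adjustment over 67528 clusters and a threshold of 0.05. Family members and pathway lists were chosen with earlier results of these data known. Named genes are the family, up to 4 members per list that passed with RWF, and the 3 genes most like each of the 3 members with the largest RWF difference. A few genes outside this rule are marked as named after their values were seen. The labels do not say that arrays of a group are separate cultures, so p-values set a difference against a spread between arrays that may be technical. That spread was estimated over all 4 groups, so calls in WPMY-1 also rest on the BPH-1 arrays. The methods' t-test, stated there for experiments in general, was run as an alternative, beside other normalizations, a dim filter, a replicate block, other variance models, 1 cluster or the mean of clusters per gene, and leaving out each array. The fit was tested on simulated data. Python 3.11.15 with matplotlib 3.10.9 drew the figures.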

Additional observations from a re-analysis of the deposited data

How the results depend on the processing

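The count of 2 lower genes in WPMY-1 with RWF became 1 when only the groups compared were fitted (NRG1 passed) and 0 by the methods' t-test, which had 4 at an unadjusted p under 0.05 (10.1% of all clusters), and it ranged from 0 to 1 when 1 array was left out. The count of 6 genes between the vehicle-treated lines became 0 by the methods' t-test, which had 7 at an unadjusted p under 0.05 (17.9% of all clusters), and ranged from 5 to 6 when 1 array was left out. The counts of 0 in BPH-1 and for the difference between the effects stayed 0 under every alternative run. TGFA in WPMY-1 turned to -0.0191 with quantile normalization and -0.0290 with median centring. When 1 array was left out it ranged from -0.0373 to 0.0902, and the difference between the effects ranged from -0.0130 to 0.200 for ERBB3, from -0.0240 to 0.328 for EREG and from -0.272 to 0.0796 for BTC. None of these 4 had passed the test, and the cause was not tested. EGFR between the vehicle-treated lines passed, for a count of 7, with quantile normalization (adjusted p = 0.0470), without dim clusters (0.0477), with 1 cluster per gene (0.0316) and with the mean of a gene's clusters (0.0313), all by limma. BTC in WPMY-1 with RWF passed as higher, for a count of 3, with 1 cluster per gene (adjusted p = 0.0426 by limma). It also passed with the mean of a gene's clusters (adjusted p = 0.0422 by limma). For DUSP6 and ETV5 the alternatives were added after seeing the data. When only the WPMY-1 arrays were fitted, both calls were lost (adjusted p = 0.113 and 0.1000 by limma), as they were by the methods' t-test (adjusted p = 0.510 and 0.492), and DUSP6 also missed with quantile normalization (adjusted p = 0.0509 by limma).

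Replicate numbers are shared by the groups, but deviations of same-numbered arrays correlated at 0.125 (BPH-1) and -0.03 (WPMY-1) with 2 pairs a line, and the numbers were not taken as pairs. With a replicate block, 2 genes still passed in WPMY-1 (HBEGF at an adjusted p of 0.0464 and NRG1 at 0.0121 by limma), 0 in BPH-1 and 6 between the vehicle-treated lines, so no call of the 7 genes changed. With 2 arrays a group and no detection call, small differences, the levels of BTC and the levels of EREG and TGFA in WPMY-1 are the least certain.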

Other observations

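Among the inhibitors of the receptors, 3 genes were picked after their values were seen. ERRFI1, which binds and blocks EGFR, had 9.13 and 8.79 in RWF-treated BPH-1, against 9.78 and 9.59 in vehicle-treated BPH-1, and 8.82 and 8.59 in RWF-treated WPMY-1, against 8.53 and 8.51 in vehicle-treated WPMY-1. The arrays did not overlap within either line, low with RWF in BPH-1 and high with RWF in WPMY-1. None of the differences with RWF passed by limma: -0.72 in BPH-1 (adjusted p = 0.181), 0.19 in WPMY-1 (adjusted p = 0.458) and -0.91 between the effects (adjusted p = 0.282). Vehicle-treated BPH-1 was above vehicle-treated WPMY-1 by 1.16 (adjusted p = 0.000438 by limma). LRIG1, which lowers the amount of EGFR, and CBLB, a ubiquitin ligase of the receptors, were lower in vehicle-treated BPH-1 than in WPMY-1, with differences of -1.89 (adjusted p = 0.000187 by limma) and -1.49 (adjusted p = 0.000691 by limma).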
